A study of Gallus gallus with 50 samples.

Results

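The 200 gene IDs with the highest median level in gene-rich motor neurons of the chicken embryo are described here, out of 20392 gene IDs in the table, of which 19197 had a count in at least 1 cell. A cell was called gene-rich when at least 5000 gene IDs had a count of 1 or more, and gene-poor otherwise. Gene IDs were ranked by their median CPM (a gene's read count divided by the total of its cell and scaled to 1000000) over the gene-rich cells of both muscles together, and the first 200 are the members. The rule used the levels in gene-rich cells, so those levels are given as a description, and no test was made on them.

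All cells came from the spinal cord of embryos at embryonic day 9. Motor neurons were marked by a fluorescent tracer taken up by their axons in 1 of the 2 muscles, called EMR and FDQ, and marked cells were picked singly after papain had dissociated the tissue. Each cell was sequenced by SMART-seq2, a protocol that amplifies full-length cDNA from polyadenylated RNA. The 25 gene-poor cells comprised 16 EMR and 9 FDQ cells, and the 25 gene-rich cells likewise comprised 16 EMR and 9 FDQ cells. No group was treated and no transgene is named, and the labels do not say how many embryos were used or from which embryo a cell came. Each muscle therefore counts as 1 sample with no replicate, SDs describe the spread between cells, and no p-value is given. Each cell is called by its number with E for EMR or F for FDQ.

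Spinal motor neurons send an axon out of the spinal cord to a skeletal muscle, and the neurons that innervate 1 muscle form a motor pool. At this embryonic stage motor axons have reached their muscles and the neurons are still growing. In RNA sequencing of single cells, the most abundant transcripts take a large share of all reads and are the ones least often missed, so they set the composition against which rarer genes are read. The table pairs no gene ID with a gene name, and the annotation table at hand named 0 of the 20392 IDs. The members are therefore given by Ensembl ID without a role, and the label of motor neuron was not checked against marker genes. Which members are mitochondrial and which are nuclear genes was not analysed here, and the labels say nothing of the condition of a cell, so what sets the gene-poor cells apart is not known. Levels in CPM are not divided by transcript length, so a long transcript can rank above a short one with the same number of molecules.

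The number of gene IDs detected was 244 at the lowest, 2203 at the median and 4850 at the highest in gene-poor cells, against 5009, 8489 and 11813 in gene-rich cells. Total counts were 36138, 1145143 and 5735080 in gene-poor cells, against 2022623, 7407845 and 11014823 in gene-rich cells. The number of IDs defines the grouping of the cells, and depth moved together with it. Total counts overlapped, since the gene-poor cell F5 had 5735080 and the gene-rich cell E6 had 2022623. Depth still cannot be wholly told apart from the grouping. Thinning made total reads equal, but not the number of molecules behind them, which was not counted. The gene-rich cells that stood furthest apart in the share or the identity of their most abundant IDs were the EMR cells E18, E8, E21, E6 and E11 and the FDQ cells F8 and F16. The results that rest on E18 and E8 are given with and without them.

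The 200 members took about the same median share of the reads of gene-poor and gene-rich cells, but the members that filled this share differed. The share of counts in the members was 21.1% at the lowest, 40.0% at the median and 93.5% at the highest in gene-poor cells, against 28.1%, 39.6% and 67.9% in gene-rich cells. Of the gene-rich cells, 18 lay between 35% and 45%, 11 of them EMR and 7 FDQ. Those outside were E18 at 67.9%, E8 at 59.5% and F16 at 48.4% above that range, and E11 at 34.95%, E14 at 33.6%, F8 at 30.9% and E21 at 28.1% below it. The gene-poor cells spread further, and several had most of their reads in the members. The EMR cells E12 at 93.5%, E16 at 89.9% and E32 at 74.0% were the highest. The EMR cells E4, E9, E15, E28 and E30 and the FDQ cells F7 and F11 lay between 50.6% and 67.9%. The widest exact 95% binomial interval of any of these shares was 0.967 percentage points, in E4, the cell with the fewest counts. These intervals and all floors cover counting error only, since PCR reads without molecular identifiers are not independent molecules.

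The median share was close in the muscles among gene-rich cells. In gene-rich cells the members held 28.1%, 39.6% and 67.9% of counts in EMR at the lowest, median and highest, against 30.9%, 39.4% and 48.4% in FDQ. In gene-poor cells the median share was 46.8% in EMR and 39.8% in FDQ. The 200 IDs next in rank, ending at rank 400, held far less in both kinds of cell, with 0.708%, 6.72% and 11.98% in gene-poor cells and 4.68%, 9.85% and 10.5% in gene-rich cells.

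**Figure D1:**
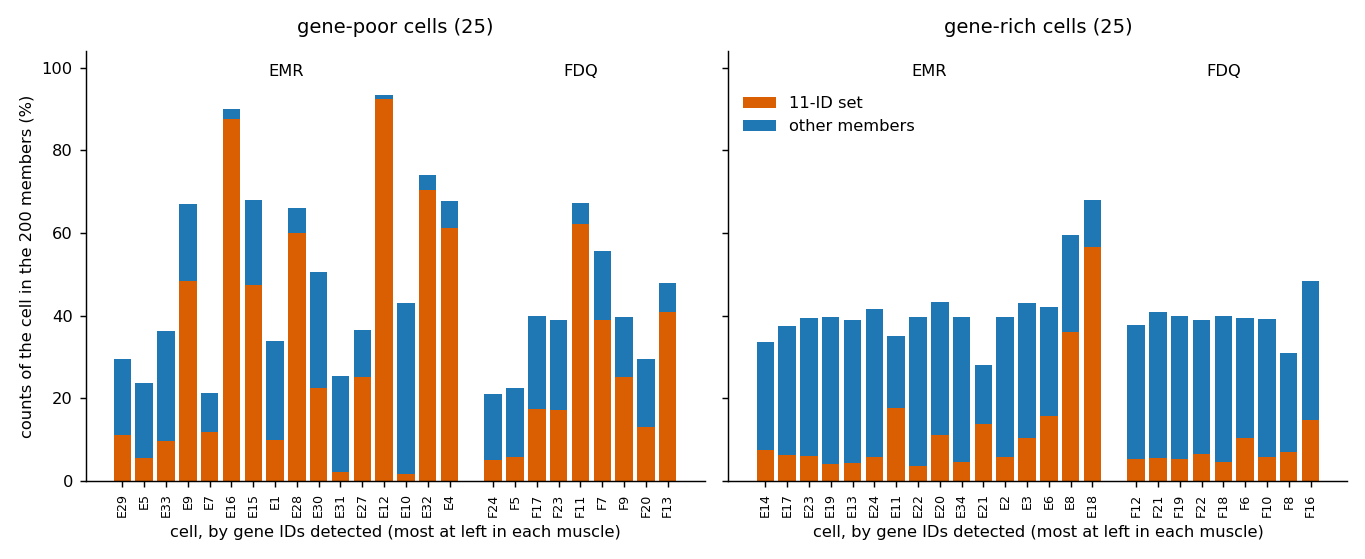
Share of each cell's counts (percent, vertical axis) that fell in the 200 members, for the 25 gene-poor cells on the left and the 25 gene-rich cells on the right, ordered within a muscle by the number of gene IDs detected. Each bar is 1 cell, orange is the 11-ID set described in the text and blue the other 189 members; the orange part reaches 92.4% in a gene-poor cell and 56.7% in a gene-rich cell, while most gene-rich bars are blue and end near 40%.

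The levels of the members fell steeply over the first ranks and slowly after that. Median CPM over the gene-rich cells spanned 15133 at rank 1 to 602 at rank 200, with 960 at the middle of the list, and the first 10 members lay between 6557 and 15133. The threshold fell in a flat stretch of the ranking. The last 2 IDs inside it had medians of 601.71 and 601.65 CPM, and the first 2 outside it had 600.2 and 599.9 CPM. The first 10 members together held 4.23%, 11.4% and 37.0% of counts in gene-poor cells at the lowest, median and highest, against 7.19%, 9.44% and 20.6% in gene-rich cells. The first 50 held 12.1%, 30.3% and 92.9% in gene-poor cells, against 18.2%, 23.9% and 61.6% in gene-rich cells.

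The member of rank 1, ENSGALG00000032142, had 880, 49290 and 243115 CPM at the lowest, median and highest in gene-poor cells, against 6437, 15133 and 97535 CPM in gene-rich cells. Among gene-rich FDQ cells its highest level, 42033 CPM, was in F16, against a median of 14906 CPM. Its range in gene-poor cells spanned that in gene-rich cells on both sides, so the groups overlap. The ID with the most counts in a cell was a member in all 25 gene-poor and all 25 gene-rich cells, and was ENSGALG00000032142 itself in 18 gene-poor and 16 gene-rich cells. The member of rank 2, ENSGALG00000009621, had 0, 3390 and 36183 CPM in gene-poor cells, against 1850, 12836 and 16277 CPM in gene-rich cells. Rank 1 was thus the higher in gene-poor cells at the median and rank 2 the lower, although both were chosen as the most abundant in gene-rich cells.

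**Figure D2:**
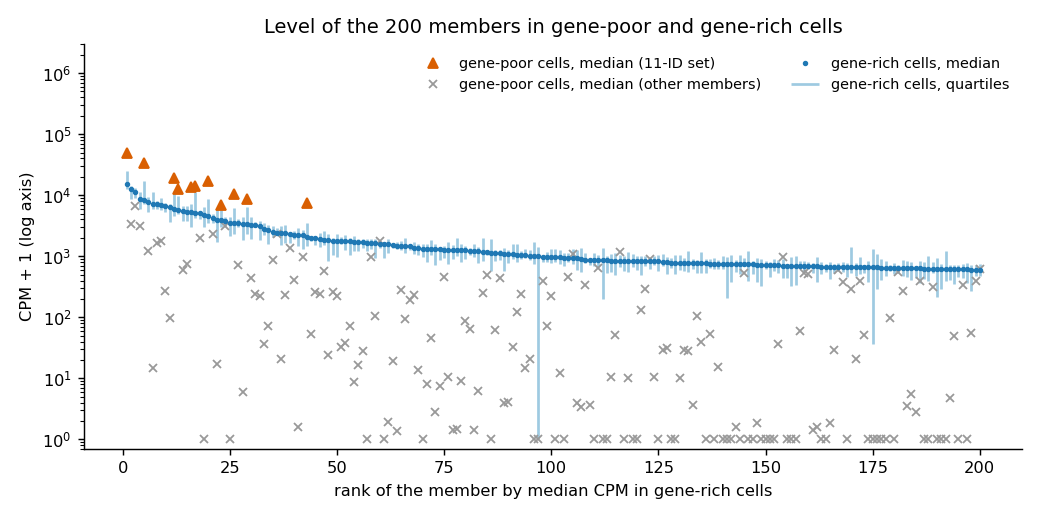
Median level of each of the 200 members (CPM + 1, log axis) against its rank, in gene-poor cells (orange triangles for the 11-ID set, grey crosses for the other 189 members) and in gene-rich cells (blue points, with lines from the lower to the upper quartile). The triangles lie above the blue points and most crosses lie below them, with crosses on the lowest line for members whose gene-poor median was 0.

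The members were present in nearly every gene-rich cell and in only part of the gene-poor cells. A cell had counts for 32 members at the lowest, 135 at the median and 189 at the highest among gene-poor cells, against 196, all but 1, and all 200 among gene-rich cells. Of the 200 members, 8 had a count in every gene-poor cell and 189 (94.5%) in every gene-rich cell. Of the next 200 IDs in rank, 176 (88%) had a count in every gene-rich cell, as did 402 (67%) of the 600 IDs after those, down to rank 1000, and 689 (17.2%) of the 4000 IDs from there to rank 5000. The rule itself favours IDs present in most gene-rich cells, so this order is a description. With at least 10 CPM in place of 1 count, 171 members were present in every gene-rich cell, against 139 of the next 200 IDs. A total of 50 members had a median of 0 in gene-poor cells. A cell with no count of an ID allows a level of up to 3 counts of its total, which was 0.523, 2.62 and 83.0 CPM in gene-poor cells at the lowest, median and highest, against 0.272, 0.405 and 1.48 CPM in gene-rich cells.

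Detection differed also at equal total counts, although the rule favours members present in gene-rich cells. After thinning to 200000 counts, which left out 4 gene-poor cells and no gene-rich cell, 58, 129 and 187 members were detected per gene-poor cell at the lowest, median and highest, against 189, all but 1, and all 200 per gene-rich cell. At that depth the cells held 619, 1576 and 4154 gene IDs of any rank when gene-poor, against 3290, 7192 and 9398 when gene-rich. The members missing from gene-poor cells came almost wholly from outside the 11-ID set. Of that set, the median thinned cell had all 11 IDs in both kinds of cell, while of the other 189 members 47, 118 and 176 were detected per gene-poor cell, against 178, 188 and 189 per gene-rich cell. Equal totals did not leave equal reads for the 189. The 11-ID set held up to 92.4% of counts in gene-poor cells and up to 56.7% in gene-rich cells.

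Fewer members were among the most abundant IDs of the gene-poor cells. Of a cell's own 200 most abundant IDs, 23, 54 and 114 were members in gene-poor cells at the lowest, median and highest, against 81, 161 and 173 in gene-rich cells. The gene-rich values entered the rule, so a lower number in gene-poor cells is partly set by it. In the gene-poor cells E4 and F13, with 244 and 273 IDs detected, the own 200 took in most of the IDs detected. The gene-rich cells with the fewest were E21 with 81, E18 with 93, E8 with 102, E6 with 117, F8 with 129 and E11 with 130.

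The members varied about as much between gene-rich cells as the next 200 IDs did, and less than IDs further down the ranking. The SD of log2(CPM + 1) over the 25 gene-rich cells had a median of 0.97 over the members, with 0.35 and 5.11 as its lowest and highest. The median was 1.01 over the next 200 IDs in rank, 1.60 over the 600 after those and 2.21 over the 4000 that followed. The coefficient of variation of CPM, the SD divided by the mean, had medians of 0.455, 0.463, 0.563 and 0.918 over the same 4 groups of IDs, in the same order. Counting error is larger for rarer IDs, and its part in this order was not tested.

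**Figure D3:**
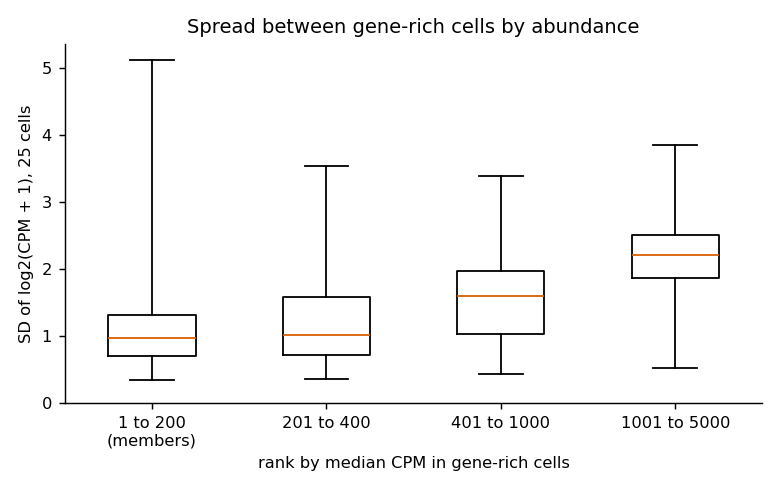
SD of log2(CPM + 1) over the 25 gene-rich cells (vertical axis) for IDs grouped by rank (horizontal axis), with the box from the lower to the upper quartile, the line at the median and the whiskers at the lowest and highest ID. The medians are 0.97, 1.01, 1.60 and 2.21 from left to right, and the member with the largest SD, at 5.11, lies above all IDs of the other groups shown.

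The 2 members with the smallest SD kept a narrow range in gene-rich cells. ENSGALG00000028600, rank 36, had 0, 2293 and 13965 CPM at the lowest, median and highest in gene-poor cells, against 1131, 2419 and 4022 CPM in gene-rich cells. Its SD in gene-rich cells was 0.35 on the log2(CPM + 1) scale, the smallest of the members, and its coefficient of variation was 0.235. ENSGALG00000033884, rank 65, had 0, 279 and 32872 CPM in gene-poor cells, against 912, 1486 and 2367 CPM in gene-rich cells, with an SD of 0.36 on the same scale. Both had wider ranges over the gene-poor cells, where each was at 0 in at least 1 cell. Both IDs were picked for the smallest SD in gene-rich cells, so a wider range elsewhere is partly set by that choice. Only 8 members had a count in every gene-poor cell, so a level of 0 there is not particular to these IDs.

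A few members were high in most gene-rich cells and at or near 0 in others. Of the 200 members, 29 were below 10 CPM in at least 1 gene-rich cell, 25 of them in only 1 or 2 cells and 4 in 3 cells or more. Single cells account for many of these gaps, since 15 of the 29 were below 10 CPM in no gene-rich cell other than E8 and E18. E18 alone lacked 16 members at that level, E21 lacked 9, and E8 and F8 lacked 5 each.

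ENSGALG00000035998, rank 97, was the member with the largest SD (5.11) and the one detected in the fewest gene-rich cells (17 of 25). It was at 10 CPM or more in 14 gene-rich cells, 9 EMR and 5 FDQ, where it had 602, 1333 and 1868 CPM at the lowest, median and highest. In the other 11, 7 EMR and 4 FDQ, it had 0, 0 and 1.2 CPM, so no gene-rich cell lay between 1.2 and 602 CPM. The cells with and without it overlapped in the number of gene IDs, with 5009, 8602 and 11813 IDs where it was present and 5185, 7852 and 9861 where it was not. Among gene-poor cells it was present at 10 CPM or more in 9, 4 EMR and 5 FDQ, with 13.7, 1385 and 10062 CPM. The other 16 gene-poor cells, 12 EMR and 4 FDQ, had no count of it although their totals reached 4513086 counts. The present and absent cells were told apart by this ID's own level, so the split is a description.

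ENSGALG00000007222, rank 25, had the next largest SD, 3.81. It had 0, 0 and 2980 CPM at the lowest, median and highest in gene-poor cells, against 0, 3550 and 9922 CPM in gene-rich cells. Among gene-poor cells it was detected in 8 of 16 EMR cells and in 0 of 9 FDQ cells. Gene-poor FDQ cells also had counts for fewer members of any kind, 108 at the median against 144.5 in gene-poor EMR cells. Among gene-rich cells ENSGALG00000007222 was below 10 CPM in E18, E21 and F8. ENSGALG00000002015, rank 190, was at 0 in 4 gene-rich cells, E11, E18, E21 and F8. The fourth member of this kind, ENSGALG00000015720, rank 141 and named after its values were seen, was below 10 CPM in E6, E11, E18 and E21 and had a median of 755 CPM in gene-rich cells. The gene-rich cells in which the last 3 IDs were low are all among the 6 with the fewest members in their own 200 most abundant IDs.

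**Figure D4:**
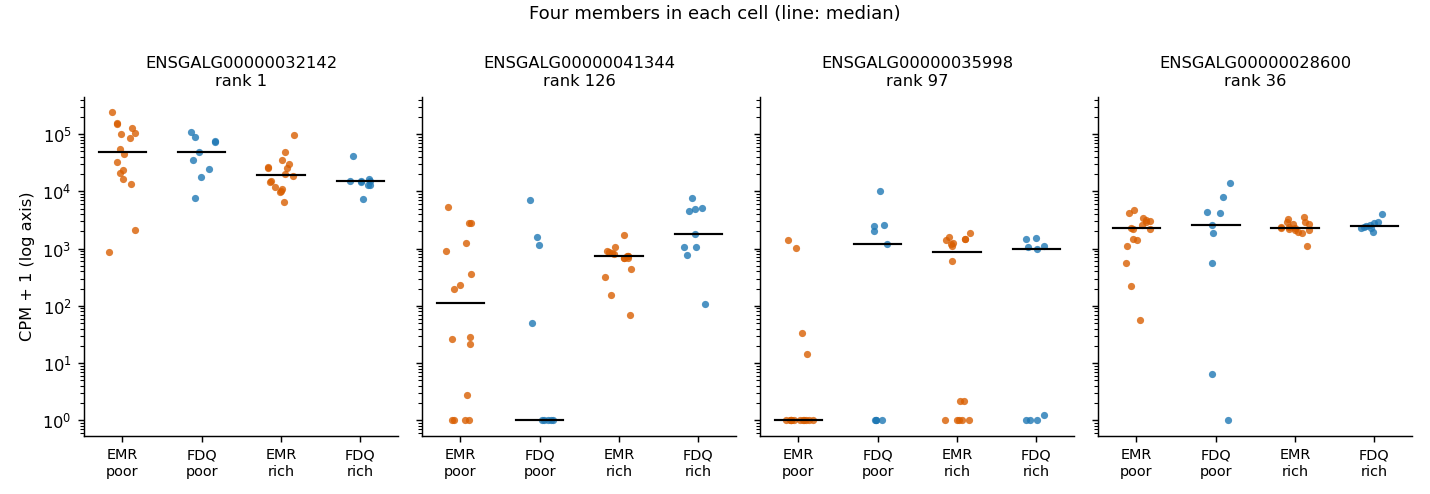
Level of 4 members in each cell (CPM + 1, log axis), with each point 1 cell and each line the median, in gene-poor EMR, gene-poor FDQ, gene-rich EMR and gene-rich FDQ cells from left to right. Rank 1 lies higher in the gene-poor cells at the median. Rank 126 lies higher in gene-rich FDQ than in gene-rich EMR cells at the median. Rank 97 is either near 1000 CPM or near 0 in gene-rich cells. Rank 36, picked for its small SD in gene-rich cells, lies between 1131 and 4022 CPM there and is spread more widely in gene-poor cells.

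The members moved together in a few sets. Over the 25 gene-rich cells, Spearman's rho between the CPM of 2 members ranged from -0.918 to 0.981 over 19900 pairs, with a median of 0.165. Grouping the members by average linkage at a rho of 0.6 placed 139 of the 200 members in sets of 3 IDs or more. The sets described here are the one that holds rank 1, of 11 IDs, and the 2 largest others, of 36 and 21 IDs. These sets were chosen after the values were seen, so they get no test. All members of a cell share 1 total, so a set with a larger share leaves less for the others.

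The 11-ID set holds rank 1 and lies wholly within ranks 1 to 43. What kind of genes its IDs are, mitochondrial or nuclear, was not analysed here, and its share of reads cannot be read as a level of any named pathway. Its members had a median rho of 0.847 with each other over the gene-rich cells (0.534 to 0.981), and 0.776 (0.50 to 0.928) over the gene-poor cells, which had no part in choosing the set. The 36-ID set spans ranks 4 to 191 and the 21-ID set ranks 2 to 185. Their median rho was 0.404 and 0.40 over gene-poor cells, against 0.690 and 0.708 over gene-rich cells. Over gene-rich cells the 11-ID set ran opposite to both, with a median rho of -0.723 to the 36-ID set and -0.602 to the 21-ID set.

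In percentage points, the 11-ID set varied most between cells in its share of reads among the sets described here. By the ratio of highest to lowest, the 21-ID set varied more in gene-poor cells, with 0.0162% to 16%. The 11-ID set held 1.63%, 22.5% and 92.4% of counts in gene-poor cells at the lowest, median and highest, against 3.62%, 6.16% and 56.7% in gene-rich cells. The grouping by IDs detected can partly set this difference, since reads in the set leave fewer for other IDs. More than 25% of counts fell in these 11 IDs in 12 gene-poor cells, against 2 gene-rich cells, E18 at 56.7% and E8 at 36.1%. More than 15% fell there in 15 gene-poor cells, against 4 gene-rich cells, which were these 2 with E11 at 17.6%, the highest share when E18 and E8 are left out, and E6 at 15.7%. The ranges overlap, since the gene-poor EMR cells E10 and E31 had only 1.63% and 2.02% in the set. By muscle, the set held 1.63%, 23.8% and 92.4% in gene-poor EMR cells and 5.12%, 17.5% and 62.1% in gene-poor FDQ cells. In gene-rich cells it held 3.62%, 6.85% and 56.7% in EMR and 4.64%, 5.78% and 14.8% in FDQ.

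At the median over cells, the make-up of the 11-ID set was similar in both kinds of cell although its share was not. ENSGALG00000032142 gave 20.5% of the set's counts at the median in gene-poor cells (4.35% to 67.2%), against 22.1% in gene-rich cells (13.7% to 44.4%). Over the 11 IDs, the median percents in gene-poor and gene-rich cells had a Spearman rho of 0.982, and no ID's medians differed by more than 1.54 percentage points. In gene-rich cells the level of each of the 11 IDs ran opposite to the number of gene IDs detected, with rho between -0.592 and -0.335. More reads in the set leave fewer for other IDs, so this rho is a description. Of the other 189 members 150 had a rho above 0, with a median of 0.252, and of the next 200 IDs in rank 143 had one, with a median of 0.155.

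The other 189 members filled most of the list's share in gene-rich cells. They held 1.04%, 16.6% and 41.5% of counts in gene-poor cells at the lowest, median and highest, against 11.2%, 32.9% and 36% in gene-rich cells. High levels in gene-rich cells chose these members, so a higher share there is partly set by the rule, whichever total is used. The difference was still seen when the reads of the 11-ID set were left out of the total. As a share of the remaining counts, the 189 held 10.6%, 19.1% and 42.1% in gene-poor cells, against 16.8%, 36% and 39.5% in gene-rich cells. The 36-ID set held 0%, 2.15% and 6.62% of counts in gene-poor cells, against 1.25%, 5.74% and 8.50% in gene-rich cells, and the 0% was in F20, where no count allows up to 28.9 CPM. The 21-ID set held 0.0162%, 2.97% and 16% in gene-poor cells, against 2.33%, 7.72% and 9.52% in gene-rich cells.

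Between the muscles, the gene-rich cells differed little in the members. By the ratio of mean CPM, EMR over FDQ, 8 members were at least 2-fold higher in EMR and 2 were at least 2-fold lower, and 190 lay within 2-fold. Of the 12000 IDs with a count in at least 5 gene-rich cells, 18.7% were at least 2-fold higher and 14.5% at least 2-fold lower, or 33.2% either way. The next 200 IDs in rank had 2 higher and 0 lower, so few calls were seen in abundant IDs whether members or not. Both groups of IDs were ranked by the median over the gene-rich cells of both muscles. An ID present in FDQ cells alone could not rank among them, since most gene-rich cells were EMR. The low number of calls is thus partly set by the rule and is a description. The absolute log2 ratio had a median of 0.20 over the members, 0.20 over the next 200 IDs and 0.61 over all IDs compared. No member had all of its EMR cells above or all below the FDQ cells, as was the case for 0% of the 12000 IDs.

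Most of the 8 higher members rested on few cells. Of the 8, 7 belong to the 11-ID set, and the other was rank 146, with a median of 1184 CPM in EMR and 470 CPM in FDQ. Without E18 and E8 the counts were 1 higher and 2 lower, and that 1 was not of the 11-ID set. Leaving out 1 cell at a time gave 1 to 11 higher and 1 to 3 lower. The higher count was 1 without E18, 2 without E8, 3 without F18, and 5 without E11, F10 or F12, and the lower count was 1 without F22. The split moved with the scaling too, with 14 higher and 1 lower by DESeq2 size factors, 2 and 2 by summed counts, and 3 and 5 by the ratio of median CPM. Of all IDs compared, 35.95%, 31.1% and 36.9% were past 2-fold either way, in the same order.

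ENSGALG00000041091, rank 17 and of the 11-ID set, had 3668, 6419 and 66794 CPM at the lowest, median and highest in gene-rich EMR cells, against 2572, 4996 and 11481 CPM in gene-rich FDQ cells. It averaged 12721 ± 16223 CPM in EMR (SD, n = 16 cells) and 5544 ± 2631 CPM in FDQ (SD, n = 9 cells), a log2 ratio of 1.2. Without E18 the log2 ratio was 0.72, and without E18 and E8 it was 0.43, both within 2-fold. ENSGALG00000032079, rank 13 of the same set, averaged 14014 ± 18732 CPM in EMR and 6541 ± 2965 CPM in FDQ, a log2 ratio of 1.10, and had 0.59 without E18 and 0.26 without E18 and E8. The medians of this ID were close, at 6455 CPM in EMR and 5597 CPM in FDQ.

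The largest ratio between the muscles among the members was toward FDQ and did not rest on 1 cell. ENSGALG00000041344, rank 126, had 69.4, 744 and 1709 CPM at the lowest, median and highest in gene-rich EMR cells, against 107, 1805 and 7758 CPM in gene-rich FDQ cells. It averaged 717 ± 380 CPM in EMR and 3012 ± 2631 CPM in FDQ, a log2 ratio of -2.07, or 4.20-fold higher in FDQ. The ranges overlap, and the SD in FDQ is close to the mean there. Leaving out each cell in turn gave log2 ratios of -2.24 to -1.75, and the ratio of medians was -1.28 on the log2 scale. In gene-poor cells the log2 ratio was -0.34, where the ID had 0, 111 and 5396 CPM in EMR and 0, 0 and 7145 CPM in FDQ. The 7145 CPM was in F23, with 1567 CPM in the next gene-poor FDQ cell, so this ratio leans on a single cell. The gene-poor medians lay the other way, toward EMR, and the ratio without F23 was not computed.

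ENSGALG00000025937, rank 192, was the other member past 2-fold toward FDQ. It had 75.3, 534 and 1648 CPM in gene-rich EMR cells, against 223, 1308 and 3058 CPM in gene-rich FDQ cells. The means were 582 ± 395 CPM in EMR and 1332 ± 871 CPM in FDQ, a log2 ratio of -1.19. Without F22 the ratio was -0.94, within 2-fold.

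In the gene-poor cells the muscles lay further apart, in members and in all IDs. Of the members 67 were at least 2-fold higher in EMR and 24 at least 2-fold lower, beside 38.4% higher and 28.4% lower among the 3855 IDs with a count in at least 5 gene-poor cells. This comparison was added after the data were seen, and the gene-poor cells of the muscles also differed in depth, with the number of IDs detected at 2219 in EMR and 1112 in FDQ at the median.

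Ranking each muscle by itself gave nearly the same list. The first 200 IDs of the gene-rich EMR cells held 189 of the members and those of the gene-rich FDQ cells 184. The 2 lists shared 175 IDs, 87.5% of either, and all 175 were members. The cells of each muscle entered the rule, so this overlap is partly set by it.

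In gene-poor cells, few members were higher and most were lower. By the ratio of mean CPM, gene-poor over gene-rich, 14 members were at least 2-fold higher, 113 (56.5%) at least 2-fold lower and 73 within 2-fold. Of the 12654 IDs with a count in at least 5 of the 50 cells, 17.4% were at least 2-fold higher and 51.9% at least 2-fold lower, so the members' share of lower IDs was near that of all IDs. Since high levels in gene-rich cells chose the members, nothing is read from it. The next 200 IDs in rank had 6 higher and 93 (46.5%) lower. The median log2 ratio was -1.20 over the members, -0.93 over the next 200 IDs and -0.72 over all IDs compared.

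The 11-ID set stood on the other side of this comparison. All 11 of its IDs were at least 2-fold higher in gene-poor cells, with log2 ratios of 1.09 to 2.0 and a median of 1.5. Cells were grouped by IDs detected, and a set that takes more reads leaves fewer for other IDs. This direction can thus be partly set by the grouping and is a description. The number of the 11 IDs past 2-fold was 10 by the ratio of median CPM, and also when E12, E16, E32 or F11 was left out. Of the other 189 members 3 were at least 2-fold higher, at ranks 105, 116 and 134, and 113 (59.8%) were at least 2-fold lower, with a median log2 ratio of -1.27. Of the 36-ID set 30 IDs were at least 2-fold lower, and of the 21-ID set 14. With the counts of the 11-ID set left out of every cell, 8 of the 189 were higher and 93 lower, beside 20.6% higher and 48.3% lower among all IDs, and their median log2 ratio was -0.97.

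**Figure D5:**
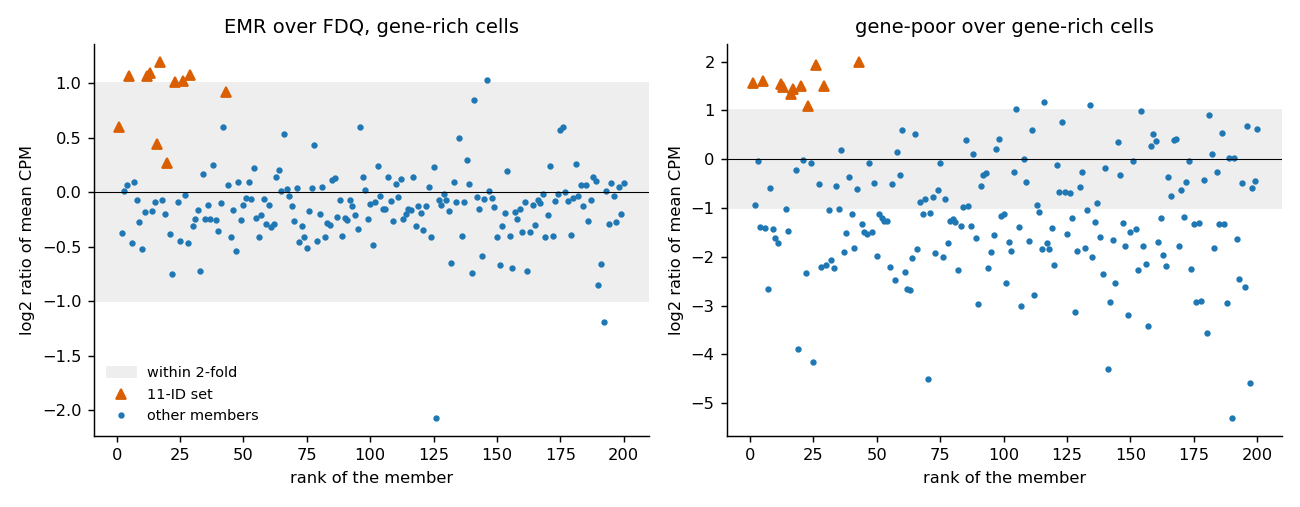
Log2 ratio of mean CPM for each of the 200 members against its rank, EMR over FDQ in gene-rich cells on the left and gene-poor over gene-rich cells on the right, with triangles for the 11-ID set, points for the other 189 members and a grey band within 2-fold. On the left 190 of the 200 members lie in the band and 7 of the 8 above it are triangles, and on the right all 11 triangles lie above the band and 113 points lie below it.

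The members highest in gene-poor cells by this ratio were both of the 11-ID set. ENSGALG00000043768, rank 43, had 0, 7355 and 46860 CPM at the lowest, median and highest in gene-poor cells, against 1047, 2025 and 20005 CPM in gene-rich cells. It averaged 13538 ± 13817 CPM in gene-poor and 3392 ± 3977 CPM in gene-rich cells (SD, n = 25 cells each), 3.99-fold higher in gene-poor cells. ENSGALG00000042750, rank 26, had 760, 10529 and 89541 CPM in gene-poor cells, against 1704, 3530 and 28437 CPM in gene-rich cells, and was 3.82-fold higher by the mean. For both IDs the SD was about as large as the mean in each kind of cell and the ranges overlap. The rank 1 ID averaged 66336 ± 59215 CPM in gene-poor and 22345 ± 18958 CPM in gene-rich cells, 2.97-fold higher in gene-poor cells.

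The members lowest in gene-poor cells were nearly absent there. ENSGALG00000002015, rank 190, had 0, 0 and 328 CPM at the lowest, median and highest in gene-poor cells, against 0, 616 and 1382 CPM in gene-rich cells. It was detected in 5 of 25 gene-poor cells and in 21 of 25 gene-rich cells, 13 EMR and 8 FDQ. The means were 15 ± 65.7 CPM in gene-poor and 595 ± 430 CPM in gene-rich cells, a log2 ratio of -5.31, and -8.23 without the gene-poor EMR cell E9, which held the 328 CPM. ENSGALG00000001916, rank 197, had 0, 0 and 425 CPM in gene-poor cells, against 0, 607 and 1366 CPM in gene-rich cells, and was detected in 5 of 25 gene-poor and 24 of 25 gene-rich cells. Its log2 ratio was -4.58, and -6.28 without the gene-poor FDQ cell F24, which held the 425 CPM. For both IDs most gene-poor cells had no count, and their ranges still overlap those of the gene-rich cells, which reach 0.

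A total of 8 members had a count in all 50 cells, gene-poor and gene-rich alike. Of the 8 members, 7 were of the 11-ID set. The other, ENSGALG00000028749, rank 18 and named after its values were seen, had 0.622, 1954 and 25754 CPM at the lowest, median and highest in gene-poor cells, against 844, 5085 and 7008 CPM in gene-rich cells. Its lowest level lies below the median 3-count floor of gene-poor cells, 2.62 CPM, so its presence in all cells can rest on very few reads.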

How the data were processed

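Per the labels, each sample is 1 backfilled motor neuron, and its title gave the muscle. The deposited table holds raw read counts per Ensembl gene ID, which the authors made without molecular identifiers. Build GRCg6a, HTSeq 0.6.1, STAR 2.5.2 and Trimmomatic 0.39 are listed in the submitters' processing notes, with no role or order. Whether counting used strand, and how multiply matched reads were treated, is not given in the sources used here, so overlapping, antisense and near-identical genes are uncertain. All 50 columns matched a sample, none were identical, 0 IDs were blank, and 0 columns went unused.

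CPM was computed from column sums. Ratios are of mean CPM with cells weighted equally, over IDs counted in 5 cells or more of those compared, and a call is at least 2-fold. The ratio was tested on simulated cells that shared a mean profile apart from known folds, with independent noise for each ID. Sets that move together and cells like E18 were not simulated. Shares have exact Clopper-Pearson 95% intervals. SDs used log2(CPM + 1), and thinning to 200000 counts used a fixed seed. Detection means 1 count or more. Alternatives included edgeR 4.0.16 TMM and DESeq2 1.42.0 size factors, used for scaling alone, in R 4.3.3, and the rest ran in Python 3.11.15 with numpy 2.4.6, pandas 2.3.3 and scipy 1.17.1. No doublet caller was run, since cells were picked singly.

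The members and lists were chosen with earlier results of these data known. The rule for named IDs took the first 2 by rank, by ratio in each direction, by largest and smallest SD and by fewest gene-rich cells with a count. Gene lists and marker genes were not analysed here, since no table named the IDs.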

Additional observations from a re-analysis of the deposited data

Results flagged for a closer look

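Shares of counts and levels of the named members were screened in the 9 gene-poor FDQ cells for a cell whose gap to its nearest neighbour exceeded 0.493 of the group's range, which is Dixon's 95% critical value. The levels in gene-rich cells chose the members and were not screened, and the groups of EMR cells were too large. Of 20 quantities screened 8 had such a cell. Chance marks about 1 in 20 when values are independent and normally spread, and these levels are skewed and come from the same 9 cells, so the count is a description and no test.

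F23 had 7145 CPM of ENSGALG00000041344, with 1567 CPM in the next cell, 10062 CPM of ENSGALG00000035998, with 2604 CPM next, and 36183 CPM of ENSGALG00000009621, with 7495 CPM next. F24 was the only one of the 9 cells with a count of ENSGALG00000002015, at 6.22 CPM, and of ENSGALG00000001916, at 424.6 CPM, so any count there would have marked it. F13 had 46860 CPM of ENSGALG00000043768, with 21137 CPM next, and 89541 CPM of ENSGALG00000042750, with 39555 CPM next, both of the 11-ID set. F20 had 32872 CPM of ENSGALG00000033884, with 1640 CPM next.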

How the results depend on the processing

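Cells without a named embryo, and IDs without a name, are the main limits, and depth in gene-poor cells limits what a level of 0 can mean. No paired analysis was possible because a number in the labels is the name of a cell and no test was made. Ranking the IDs in 7 other ways left 184 to 194 of the 200 members in place. Of 635 values computed under alternatives, 612 stayed within the limit set for them and 23 moved further. Counts had to stay within 1.5 times the reported one, and ratios and medians within a spread. For the log2 ratios of 8 named IDs that spread was the SD between cells, so large shifts can stay within it. Leaving out 1 cell at a time gave 450 of the values, of which 7 moved further. Of the other 185, 16 moved further, 14 of them in results other than those ratios. None of those ratios changed sign, but the 8 IDs were picked as the most extreme in the same data, which makes a change of sign unlikely.

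The 8 members at least 2-fold higher in EMR became 2 with gene-rich cells taken from 7500 IDs, 2 by summed counts, 3 by median CPM, 14 by DESeq2 size factors and 1 to 11 with a cell left out. The 2 lower became 4 from 4000 IDs, 5 by median CPM, 1 by DESeq2 size factors and 1 to 3 with a cell left out. Of all IDs compared, 33.2% were past 2-fold either way in the main comparison. The share was 37.2% from 4000 IDs, 31.5% from 7500 IDs, 31.1% by summed counts, 36.9% by median CPM and 35.95% by DESeq2 size factors. Of the alternatives chosen after seeing the data, leaving out the counts of the 11-ID set gave 1 higher, leaving out E18 and E8 gave 1 higher, and the gene-poor cells gave 67 higher and 24 lower. The share of all IDs past 2-fold either way was 34.6%, 31.6% and 66.8%, in the same order.

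Between gene-poor and gene-rich cells the 3 higher members outside the 11-ID set became 8 when the counts of that set were left out. The 14 higher in all became 12 to 15 with a cell left out, and the 113 lower became 109 to 116. Other choices moved these counts further. They were 10 higher and 165 lower by median CPM, and 20 and 102 by DESeq2 size factors. A gene-poor median of 0 counts as lower there, which covers 50 of the members. By TMM they were 14 and 129, and by summed counts 13 and 95. EMR cells alone gave 13 and 98, and FDQ cells alone 19 and 130. Of all IDs compared, 69.3% were past 2-fold either way in the main comparison. The share was 63.7% by median CPM, 71.5% by DESeq2 size factors, 72.2% by TMM and 67.0% by summed counts. It was 72.8% in EMR cells alone and 75.3% in FDQ cells alone. ENSGALG00000002015 had a log2 ratio of -10.24 in FDQ cells alone. That value rests on F24, at 6.22 CPM the only gene-poor FDQ cell with a count of it. The floors of the gene-poor FDQ cells were 0.523, 5.34 and 48.6 CPM at the lowest, median and highest, so its size is uncertain. The median log2 ratio of all IDs above 0 in both groups, gene-poor over gene-rich, was -0.72. It moved to -1.09 by TMM, -0.23 by summed counts and -0.52 with the 10 most abundant IDs of each cell out of its total. By median CPM it was -3.77, but over fewer IDs, since an ID with a median of 0 in either group has no ratio. EMR over FDQ the median over IDs was -0.03, and moved to 0.12 by DESeq2 size factors. By median CPM it was -0.28, where IDs with a median of 0 likewise drop out. That of the members, -0.11, moved to 0.08 by DESeq2 size factors, so the sign of these medians depends on the scaling.

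The 11-ID set depended on the limit of rho distance, with 0.4 as used. At 0.3 the first-ranked ID stood by itself, a set of 1, and the other 10 stayed together, and at 0.5 the set grew to 18 IDs with all 11 in it.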
